A study of Mus musculus with 7 samples.

Results

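The ATP-binding cassette (ABC) transporters were followed through the oligodendrocyte lineage of the adult mouse brain. Members were taken by name: a gene belonged to the family if its symbol was Abc, a letter from a to g, a number and, in some, a final letter a, b or c. The rule found 50 of the 27998 genes counted, 16 of them in the Abca, 10 in the Abcb, 10 in the Abcc, 4 in the Abcd, 1 in the Abce, 3 in the Abcf and 6 in the Abcg subfamily. The rule itself uses the symbol and no measured value. The rule leaves out 3 ABC genes that carry other symbols, Tap1, Tap2 and Cftr, which are given at the end.

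ABC proteins bind and hydrolyse ATP, and most use it to move a substrate across a membrane. In the nervous system the family is known for lipid traffic: Abca and Abcg members move cholesterol and phospholipids, and Abcd members other than Abcd4 bring fatty acids into peroxisomes. Several Abcb members sit in the mitochondrial inner membrane and handle iron, haem or peptides, whereas Abce1 and the Abcf proteins carry the ATP-binding fold with no membrane part and act in translation.

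The cells came from the brains of mice of both sexes at P90, with motor and cingulate cortex as the region in the labels and neocortex in the protocol, on a mixed C57BL/6-B6CBA background, sorted by reporter and sequenced by 10x 3′ single-cell RNA-seq, which gave 3 libraries, 1 per population. Control dOLCs (dorsally derived oligodendrocyte lineage cells, tdTomato-positive) and control vOLCs (ventrally derived, GFP-positive) were from Emx1-Cre:Sox10-GFP-TdTom animals, and ectopic vOLCs were the GFP-positive cells of animals with the same Emx1-Cre and Sox10-GFP-tdTom alleles plus Sox10-GFP-DTA, in which diphtheria toxin A is expressed in the dorsal lineage. All 3 populations thus carried Emx1-Cre and the Sox10 reporter, and GFP marks Sox10-expressing cells in which Cre did not act. The methods give 4 control mice and 2 with ablation, but nothing in the files assigns a cell to an animal. No value below therefore has a biological replicate, and conditions were not tested against each other. The authors discarded further animals for batch effects, for which they name stress during sorting as the likely source.

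The 3 libraries held 5804, 925 and 2562 cells that passed the quality control of the authors, given throughout with control dOLCs before control vOLCs and ectopic vOLCs last, with 23078181, 4846391 and 14293675 unique molecular identifiers (UMIs) and a median of 3489.5, 5022 and 5318.5 UMIs per cell. Cell barcodes that occur in more than 1 library numbered 39. Clusters are those of the authors, and the text turns on OPCs (oligodendrocyte precursor cells, leaving out cycling ones) and on MOL5/6, the mature oligodendrocytes of 4 joined clusters. The 6 listed mature oligodendrocyte markers summed to between 47507 and 53479 CPM in MOL5/6 of the 3 libraries, and the 5 listed OPC markers to between 10687 and 13308 in OPCs. Among listed markers of other cells, Kcnj8 and Tmem119, of pericytes and microglia, had 0 UMIs in every library, and the 6 microglial genes together held 37, 8 and 11 UMIs. Other lists were not at 0 in OPCs: the 5 pericyte genes, which include the OPC gene Cspg4, summed to between 597 and 811 CPM, the 5 astrocyte genes to between 630 and 692 and the 4 neuronal genes to between 1090 and 1262. In OPCs of control vOLCs Cspg4 gave the whole pericyte sum, with Vtn, Rgs5, Kcnj8 and Pdgfrb at 0. The part of other cell types or of their free RNA in the OPC levels was not tested. Because the clusters were made from these same counts, differences between clusters are descriptions.

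Levels are the UMI sums of each library and cluster, scaled to a total of 1000000 (CPM). A 3′ UMI is 1 captured molecule, so levels were not divided by transcript length. Differences between groups are log2 ratios of CPM with a 95% conditional exact binomial interval, which covers counting error only and not the spread between mice. A gene was counted as lower or higher when it had at least 50 UMIs in the 2 groups together and differed by at least 1.5-fold.

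RefSeq promoters, from 250 bases before to 50 bases after the annotated start on GRCm38.p6, were at hand for 38 of the 50 members. The promoters of 4 members are shown because these members were skewed to one side of the range between precursor and mature cells described below: in control dOLCs Abca2 and Abca8a were the members most skewed to mature cells, and Abca1 and Abcb4 were skewed to OPCs. Capitals mark matches, on either strand, to 4 motifs: the GC box (GGGCGG), the TATA box (TATAAA), a SOX core (ACAAAG) and the E-box CACGTG. Each sequence is written in the direction of its gene.
Abca2 (chr2:25428349-25428648, plus strand): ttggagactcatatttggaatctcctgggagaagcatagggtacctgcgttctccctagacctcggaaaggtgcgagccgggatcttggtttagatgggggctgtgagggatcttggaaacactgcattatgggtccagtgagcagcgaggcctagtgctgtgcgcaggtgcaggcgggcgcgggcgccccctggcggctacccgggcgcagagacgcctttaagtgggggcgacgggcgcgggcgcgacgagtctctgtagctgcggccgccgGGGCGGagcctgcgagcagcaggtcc
Abca8a (chr11:110095888-110096187, minus strand): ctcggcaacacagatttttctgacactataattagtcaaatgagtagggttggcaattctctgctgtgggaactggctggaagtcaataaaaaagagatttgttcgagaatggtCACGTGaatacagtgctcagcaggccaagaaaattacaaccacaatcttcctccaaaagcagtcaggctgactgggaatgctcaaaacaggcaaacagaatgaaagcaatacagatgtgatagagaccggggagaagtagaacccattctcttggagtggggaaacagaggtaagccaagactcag
Abca1 (chr4:53159846-53160145, minus strand): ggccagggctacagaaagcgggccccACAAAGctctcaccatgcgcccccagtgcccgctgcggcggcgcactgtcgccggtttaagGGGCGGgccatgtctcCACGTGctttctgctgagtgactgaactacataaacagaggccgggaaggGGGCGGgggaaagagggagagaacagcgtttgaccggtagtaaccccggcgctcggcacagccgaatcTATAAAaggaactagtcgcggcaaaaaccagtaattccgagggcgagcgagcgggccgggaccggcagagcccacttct
Abcb4 (chr5:8893471-8893770, plus strand): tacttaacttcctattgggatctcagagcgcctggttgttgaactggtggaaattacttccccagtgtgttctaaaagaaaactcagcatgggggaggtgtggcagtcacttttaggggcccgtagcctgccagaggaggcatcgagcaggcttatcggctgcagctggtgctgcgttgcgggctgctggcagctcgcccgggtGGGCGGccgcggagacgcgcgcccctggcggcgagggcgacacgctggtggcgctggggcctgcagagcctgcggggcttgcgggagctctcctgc
The Abca2 window held 26 CG dinucleotides and 1 GC box, and the Abca8a window held 4 CG dinucleotides and an E-box, so the 2 promoters of the mature-skewed members had little in common in these letters. Abca1 had 26 CG dinucleotides, 2 GC boxes, 1 TATA box, 1 SOX core and 1 E-box, and Abcb4 had 21 CG dinucleotides and 1 GC box. Over 32851 mouse promoters of this length the median was 7 CG dinucleotides, and 35.7% held the GC box, 13.6% the TATA box, 18.7% the SOX core and 7.15% the E-box.

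Of the 50 members, 35 had at least 1 UMI and 15 had none. At least 500 UMIs were counted for 18 members, at least 50 but under 500 for 10 and from 1 to 49 for 7. Abca2 led with 23707 UMIs, followed by Abcb8 with 4959, Abcf1 with 3370, Abcg1 with 3021, Abca8a with 2907, Abcd3 with 2615 and Abcc5 with 2156. When each total was divided by the length of the longest GENCODE M21 transcript, Abca2, Abcb8 and Abcf1 kept ranks 1 to 3, Abcd3 moved from rank 6 to 4, and Abca1, whose longest transcript has 10262 bases, moved from rank 12 to 18. Together the family held 1509, 1415 and 1039 CPM in MOL5/6 of the 3 libraries. In OPCs it held 1412, 1505 and 1159 CPM. The library of ectopic vOLCs had the lowest sum in both cell types.

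**Figure D1:**
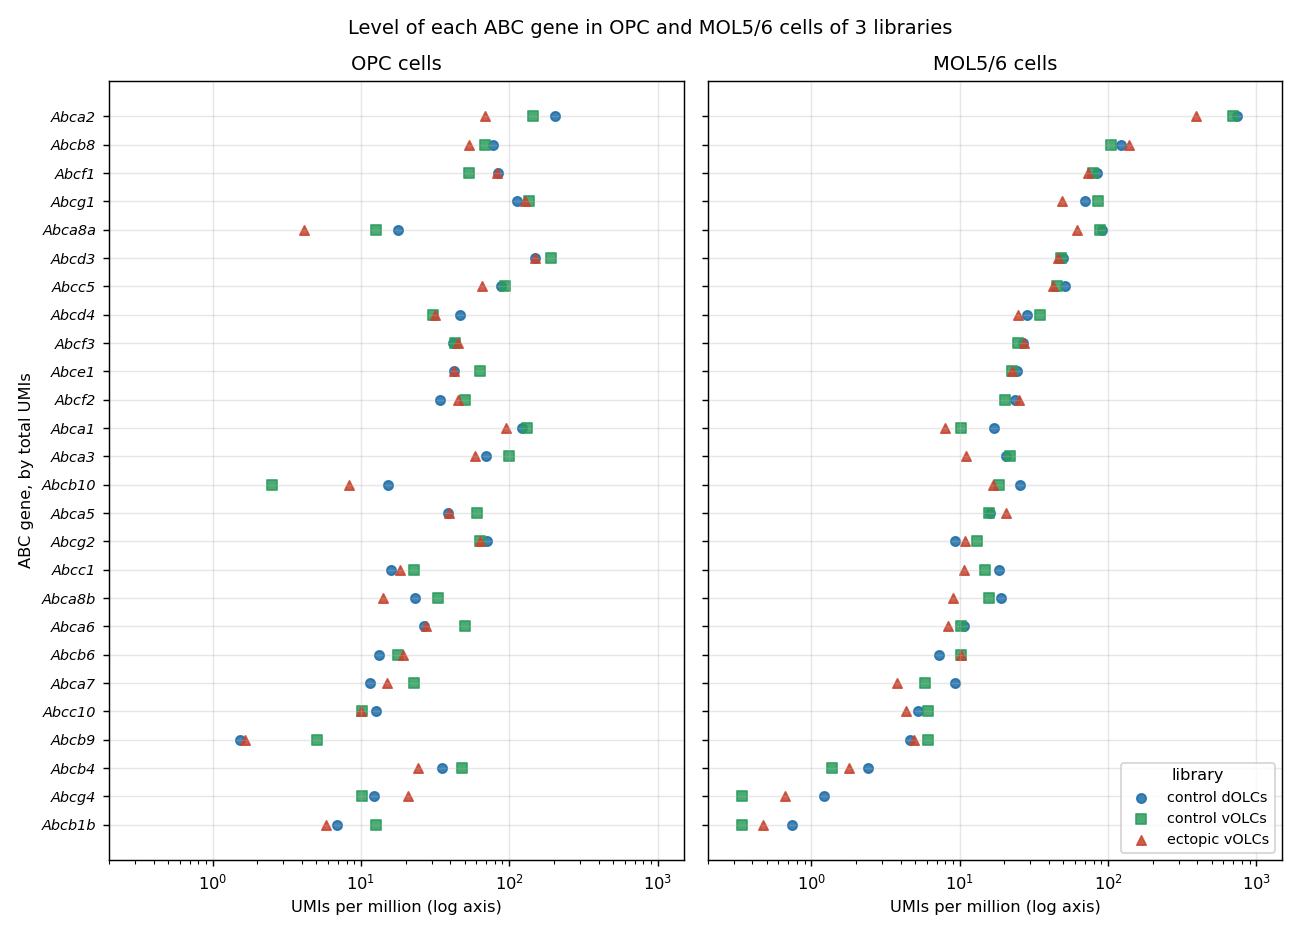
CPM, on a log axis, of 26 ABC genes with at least 50 UMIs in OPC (left) and MOL5/6 (right) cells, 1 point per library. Abca2 stands above every other member in MOL5/6, at 393 to 746 CPM, whereas in OPCs Abcd3, Abcg1 and Abca1 reach the same range as Abca2.

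Abca2 alone supplied 49.4%, 49.2% and 37.8% of the family's UMIs in MOL5/6. In OPCs its share was 14.5%, 9.60% and 5.96%. Without Abca2 the remaining family was at 763, 720 and 647 CPM in MOL5/6 and at 1208, 1360 and 1090 CPM in OPCs. By subfamily, the Abca sum of MOL5/6 was 929, 863 and 515 CPM, the Abcb sum 176, 150 and 179 CPM and the Abcf sum 135, 124 and 125 CPM.

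The comparison of maturation stages asked which members differ between OPCs and MOL5/6 of the same library. In control dOLCs 27 members passed the filter, of which 15 (55.6%) were lower and 5 (18.5%) higher in MOL5/6, beside 46.0% and 12.9% of all 10583 genes tested. In control vOLCs 19 passed, 13 lower and 4 higher, beside 39.5% and 23.2% of all genes. In ectopic vOLCs 25 passed, 17 lower and 5 higher, beside 52.6% and 13.4% of all genes. The family median was -0.69, -1.05 and -0.84 on the log2 scale in these libraries, and the median of all genes was -0.49, -0.29 and -0.65. These counts depend on the scaling: edgeR's TMM factors moved the median of all genes up by between 0.66 and 0.90 in the 3 libraries, and the family median then stood at -0.03 in control dOLCs and -0.34 in control vOLCs, and turned sign to 0.05 in ectopic vOLCs. With these factors 9 members were lower and 7 higher in control dOLCs, 8 lower and 6 higher in control vOLCs, and 6 lower and 7 higher in ectopic vOLCs. Over all genes the share of calls that were lower went from 78.1% to 42.7%, from 63.0% to 29.0% and from 79.7% to 37.6% in the same order. Thinned to equal depth, 5 members of control vOLCs had enough UMIs, of which 0 were lower and 4 higher in MOL5/6, beside 24.2% and 39.1% of the 2132 genes left.

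Of the 19 members that passed in all 3 libraries, 4 were higher in MOL5/6 in each of them, beside 25.4% of 6747 genes: Abca2, Abca8a, Abcb8 and Abcb10. Their direction was the same with TMM and with DESeq2 size factors, as it was for 100% of those genes, since both scalings move every ratio up. The filter sums both groups, so a member can pass through MOL5/6 alone. Abcb10 passed in control vOLCs with 54 UMIs in MOL5/6 and 1 in OPCs, and Abca8a had 5 OPC UMIs in each vOLC library. Lower in each library were 12, beside 54.2% of all genes, and 7 of these kept the direction under both other scalings, beside 42.2% of the genes that were lower, namely Abca1, Abca3, Abca5, Abca6, Abcd3, Abce1 and Abcg2. The other 5, Abca8b, Abcc5, Abcf2, Abcf3 and Abcg1, changed direction in at least 1 library. The remaining 3, Abcc1, Abcd4 and Abcf1, were not on the same side of 0 in the 3 libraries.

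**Figure D2:**
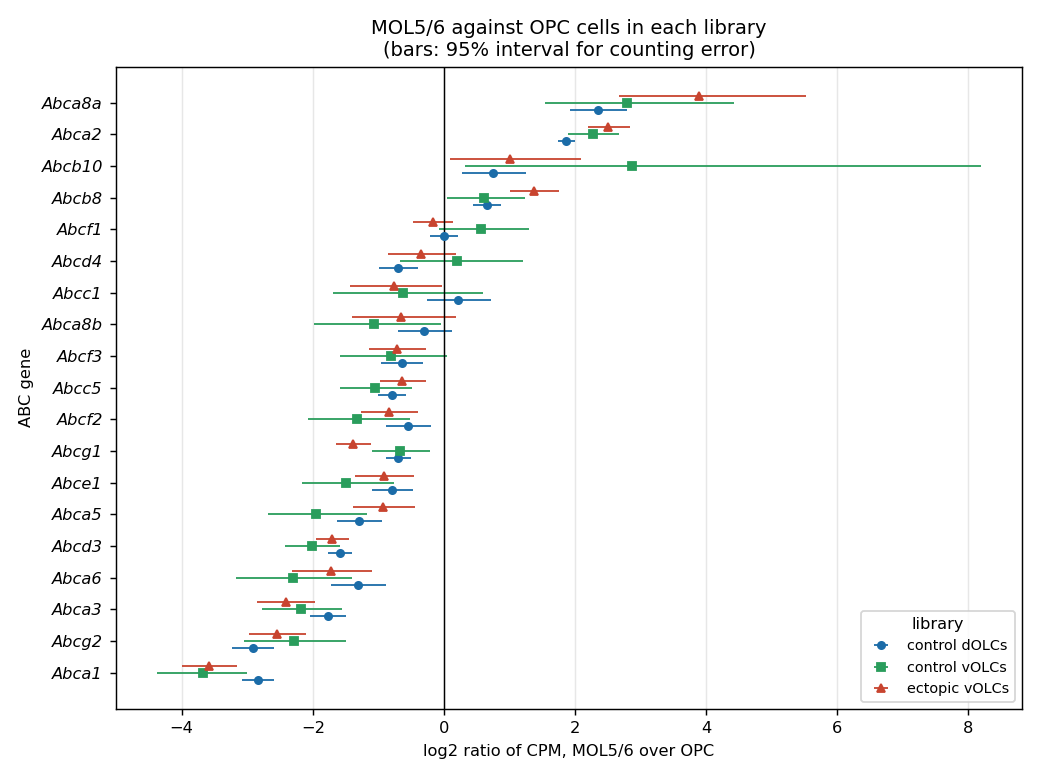
Log2 ratio of CPM of MOL5/6 over OPC cells within each library for the 19 members that passed the filter in all 3, with 95% intervals for counting error. Abca8a, Abca2, Abcb10 and Abcb8 lie to the right of 0 in the 3 libraries, whereas Abca1 lies between -3.68 and -2.84, and Abcg2 between -2.91 and -2.28.

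The comparison of populations asked how members of ectopic vOLCs stand against both controls. In MOL5/6, 26 members passed the filter against control dOLCs. Of these 8 (30.8%) were lower and 0 higher, beside 19.9% lower and 1.80% higher among 10211 genes. Among the lower members were Abca1, Abca2, Abca3, Abca7, Abca8b, Abcb10 and Abcc1. The 95% intervals of all 8 lay below 0. Against control vOLCs 25 members passed, of which 5 were lower and 0 higher, beside 16.4% and 2.81% of all genes: Abca2, Abca3, Abca7, Abca8b and Abcg1. The intervals of 4 of these lay below 0, and that of Abca7 held 0. Against both controls 4 of 25 members were lower, Abca2, Abca3, Abca7 and Abca8b, beside 10.1% of 9130 genes, the 2 comparisons sharing the ectopic library. The family median was -0.27 against control dOLCs and -0.30 against control vOLCs, beside -0.15 and -0.09 for all genes.

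Other scalings lifted the MOL5/6 ratios as a whole, TMM by 0.17 and size factors by 0.19 against control dOLCs, and the share of all calls that were lower went from 91.7% to 74.0% and 71.0%. Under both, Abcb10 was no longer past 1.5-fold and Abcb6 was counted as higher, while the other 7 lower members were the same ones. Abcd3 and Abce1 changed sign. Against control vOLCs, TMM took Abca7 out of the lower members and counted 1 member as higher. Where a UMI was also required in at least 10% of cells, 12 members were left against control dOLCs and 1 of them, Abca2, was counted as lower, beside 11.5% of the 5218 genes left.

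Between the controls, 25 members passed in MOL5/6, of which 3, Abca1 and Abca7 among them, were lower in control vOLCs and 0 higher, beside 5.60% and 4.12% of all genes. In OPCs of ectopic vOLCs against control dOLCs 23 passed, 5 of them lower (among them Abca2, Abca8a, Abca8b and Abcb10) and 1 higher (Abcg4), beside 8.20% and 5.52% of all genes. The intervals lay below 0 for 2 of the 5, Abca2 and Abca8a, and for Abcg4 the interval held 0. Against control vOLCs 15 passed, 4 lower (Abca2, Abca3, Abca5 and Abca6) and 1 higher (Abcf1), beside 9.77% and 18.0% of all genes. The intervals of Abca5 and Abcf1 held 0, and that of Abca6 ended at -0.0054. Between the control OPCs 19 passed, 2 lower (Abcd4 and Abcf1) and 2 higher (Abca5 and Abca6) in control vOLCs, beside 13.8% and 10.2%. There the intervals of Abcd4 and Abca5 held 0. Abca2 was the 1 member lower in ectopic OPCs against both controls, out of 15, beside 1.68% of 5724 genes. The OPCs of control vOLCs numbered 121 cells and 394731 UMIs, the smallest of the OPC and MOL5/6 groups.

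**Figure D3:**
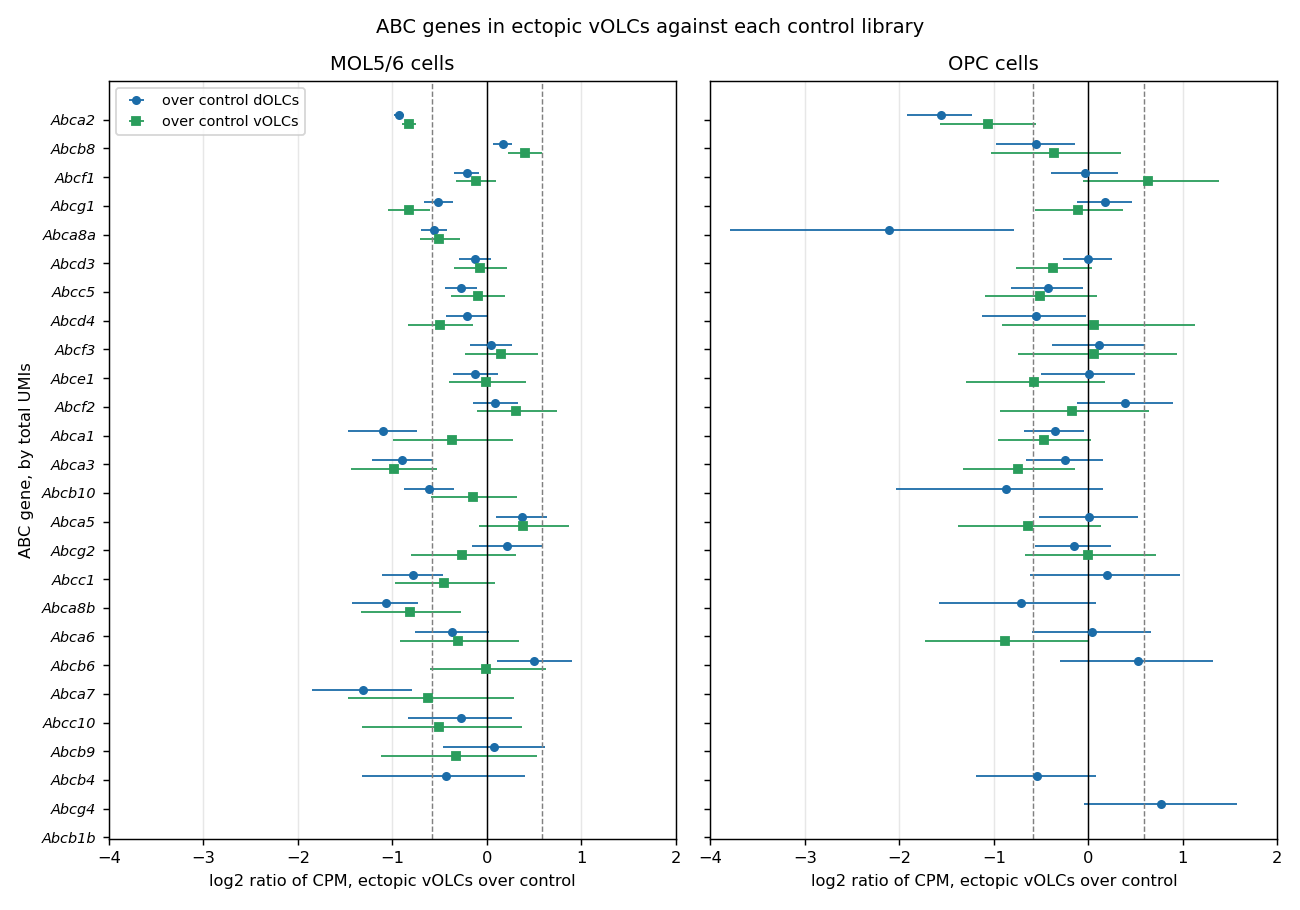
Log2 ratio of CPM of ectopic vOLCs over control dOLCs (circles) and over control vOLCs (squares) for members shown that passed the filter in MOL5/6 (left) and OPC (right) cells, with 95% intervals for counting error and dashed lines at 1.5-fold. In MOL5/6 Abca2, Abca3, Abca7 and Abca8b lie beyond the lower dashed line against both controls, and no member lies beyond the upper one.

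Among the lipid exporters, Abca2, a transporter of late endosomes and lysosomes that is abundant in myelinating cells, lies on chromosome 2 (GRCm38, 25428703 to 25448540, plus strand). It was at 204, 144 and 69.0 CPM in OPCs, from 536, 57 and 83 UMIs. In MOL5/6 it was at 746, 696 and 393 CPM. The log2 ratio of MOL5/6 to OPCs was 1.87 (1.74 to 2.00) in control dOLCs, 2.27 (1.89 to 2.67) in control vOLCs and 2.51 (2.19 to 2.84) in ectopic vOLCs, and the intervals of both vOLC libraries overlapped. In both cell types the ectopic library was the lowest.

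Abca8a, a membrane transporter of the Abca gene cluster on chromosome 11, showed the same skew to mature cells. It had 47, 5 and 5 UMIs in OPCs, or 17.9, 12.7 and 4.16 CPM, and 91.0, 87.7 and 62.0 CPM in MOL5/6. The log2 ratio of its MOL5/6 level in ectopic vOLCs to control dOLCs was -0.56, just inside 1.5-fold. Its neighbour Abca8b was at 23.2, 32.9 and 14.1 CPM in OPCs and at 18.9, 15.8 and 8.99 CPM in MOL5/6, and lacked the skew. Abca8a and Abca8b are near copies, so reads that match both may have been dropped or split between them.

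Abca1 loads cholesterol and phospholipid onto apolipoproteins at the cell surface. It was an OPC gene here, at 122, 132 and 94.8 CPM in OPCs against 17.0, 10.3 and 7.94 CPM in MOL5/6. In MOL5/6 control dOLCs had the highest level and ectopic vOLCs the lowest, a log2 ratio of -1.10 (interval -1.47 to -0.73), while the difference from control vOLCs was -0.37 with an interval from -0.99 to 0.28. Abca3, best known for filling the lamellar bodies of the lung with phospholipid, was at 70.1, 98.8 and 59.1 CPM in OPCs and at 20.6, 21.9 and 11.1 CPM in MOL5/6. In MOL5/6 of ectopic vOLCs it stood at -0.89 (-1.21 to -0.58) relative to control dOLCs and at -0.99 (-1.44 to -0.52) relative to control vOLCs.

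Abca5, a lysosomal member, had its highest MOL5/6 level in ectopic vOLCs, unlike the other Abca members. It was at 15.9, 15.8 and 20.5 CPM, a log2 ratio of 0.37 (0.10 to 0.64) to control dOLCs and of 0.38 (-0.08 to 0.87) to control vOLCs. This direction turned to -0.24 against control dOLCs when cells were thinned to 1000 UMIs. In OPCs Abca5 was at 38.9, 60.8 and 39.1 CPM. Abca7, a phospholipid transporter, had fewer than 500 UMIs in all. It was at 9.37, 5.82 and 3.78 CPM in MOL5/6, and its log2 ratio of -1.31 (-1.85 to -0.79) against control dOLCs was the lowest of the family. Against control vOLCs it was -0.62, with an interval from -1.47 to 0.29. Abca6 was at 26.7, 50.7 and 27.4 CPM in OPCs and at 10.7, 10.3 and 8.32 CPM in MOL5/6.

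The Abcb members of this dataset were mostly those of mitochondria. Abcb8, of the mitochondrial inner membrane, ranked 2 of the family by UMIs, at 78.1, 68.4 and 53.2 CPM in OPCs and at 123, 104 and 138 CPM in MOL5/6. Ectopic vOLCs were the lowest library in OPCs and the highest in MOL5/6. Against control dOLCs the log2 ratio was 0.17 (0.07 to 0.27) in MOL5/6 and -0.55 (-0.98 to -0.14) in OPCs. With cells thinned to 1000 UMIs the OPC ratio turned to 0.15. Within MOL5/6 the library gap was uneven. In MOL5/6a ectopic vOLCs had 186 CPM and control dOLCs 125 CPM, a log2 ratio of 0.57 (0.33 to 0.82), whereas in MOL5/6d it was -0.04 (-0.23 to 0.14). Control vOLCs had 101 CPM in MOL5/6a, and against them Abcb8 was past 1.5-fold higher in ectopic vOLCs of that cluster.

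Abcb10, which acts beside haem synthesis in the inner membrane, was at 15.2, 2.53 and 8.32 CPM in OPCs, the middle value from 1 UMI, and at 25.5, 18.5 and 16.7 CPM in MOL5/6. Among members with under 500 UMIs, the lysosomal peptide transporter Abcb9 was at 4.65, 6.16 and 4.92 CPM in MOL5/6. Abcb9 had 4, 2 and 2 UMIs in OPCs. Abcb6 was at 7.21, 10.3 and 10.2 CPM in MOL5/6, with control dOLCs the lowest.

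Abcb4, which flips phosphatidylcholine into bile in the liver, was the clearest OPC gene of the subfamily. It had 92, 19 and 29 UMIs in OPCs, at 35.0, 48.1 and 24.1 CPM, and was at 2.43, 1.37 and 1.80 CPM in MOL5/6. The log2 ratio of MOL5/6 to OPCs was -3.85 in control dOLCs. It was -5.13 in control vOLCs and -3.75 in ectopic vOLCs, where Abcb4 had too few UMIs to pass the filter. Of the mouse drug efflux pumps that line brain vessels, Abcb1a had 0 UMIs in every library, which allows at most 0.130, 0.619 and 0.210 CPM over all cells (3 UMIs per library). Its near copy Abcb1b had 35, 6 and 15 UMIs, of which 18, 5 and 7 were in OPCs.

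The conjugate exporters were led by Abcc5, which exports organic anions such as cyclic nucleotides, at 88.4, 93.7 and 65.7 CPM in OPCs and 51.1, 45.2 and 42.4 CPM in MOL5/6. Ectopic vOLCs were the lowest library in both, by 0.43 and 0.27 on the log2 scale against control dOLCs. Abcc1, an exporter of glutathione conjugates, was at 16.0, 22.8 and 18.3 CPM in OPCs and at 18.5, 14.7 and 10.8 CPM in MOL5/6. In MOL5/6 of ectopic vOLCs its log2 ratio was -0.78 (-1.11 to -0.46) to control dOLCs, and -0.45 (-0.97 to 0.09) to control vOLCs. With cells thinned to 1000 UMIs, Abcc1 was no longer counted as lower against control dOLCs, from 30 UMIs in ectopic vOLCs and 77 in control dOLCs. Abcc10 was at 5.26, 6.16 and 4.35 CPM in MOL5/6, and its gene overlaps Dlk2 on the other strand. Abcc4 had 19 of its 28 UMIs in the OPCs of control dOLCs. Abcc8 and Abcc9, the regulatory subunits of ATP-sensitive potassium channels, had 4 and 0 UMIs.

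In the Abcd subfamily, Abcd3, an abundant transporter of the peroxisomal membrane, was among the highest members in OPCs, at 150, 193 and 149 CPM. It was at 49.9, 47.9 and 45.7 CPM in MOL5/6, where the interval of each ratio between libraries held 0. Abcd2, a peroxisomal importer of fatty acids, had 34 UMIs in all. Abcd4, which works in lysosomal release of cobalamin, was at 46.5, 30.4 and 31.6 CPM in OPCs and 28.6, 34.9 and 24.8 CPM in MOL5/6.

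The soluble ATPases of translation were counted in every library. Abce1, which splits ribosomes after termination, was at 24.5, 22.6 and 22.5 CPM in MOL5/6 and at 42.3, 63.3 and 42.4 CPM in OPCs. Abcf1, a translation initiation factor, was at 84.6, 79.1 and 73.0 CPM in MOL5/6 and at 84.6, 53.2 and 82.3 CPM in OPCs, with control vOLCs the lowest in OPCs. In MOL5/6 Abcf2 was at 23.5, 20.2 and 25.1 CPM and Abcf3 at 26.6, 24.7 and 27.3 CPM. In OPCs Abcf2 was at 34.3, 50.7 and 44.9 CPM and Abcf3 at 41.5, 43.1 and 44.9 CPM. None of the 4 was past 1.5-fold in MOL5/6 against either control, and the log2 ratios against control dOLCs ran from -0.21 for Abcf1 to 0.09 for Abcf2. With cells thinned to 1000 UMIs, Abcf2 turned direction and was counted as lower against control dOLCs. It then had 28 UMIs in ectopic vOLCs and 92 in control dOLCs.

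In the Abcg subfamily, Abcg1, which moves cholesterol to lipoproteins, was at 113, 137 and 127 CPM in OPCs and at 69.7, 86.3 and 48.8 CPM in MOL5/6. In MOL5/6 control vOLCs were the highest and ectopic vOLCs the lowest library, and the log2 ratio to control dOLCs was -0.51 (-0.67 to -0.36), with -0.82 (-1.04 to -0.60) to control vOLCs. Abcg2, a drug and urate exporter of stem cells and vessel walls, was at 70.5, 63.3 and 63.2 CPM in OPCs and 9.37, 13.0 and 10.9 CPM in MOL5/6. Of the 6 listed endothelial genes, Flt1 and Slco1a4 had 0 UMIs in the OPCs of the 3 libraries and Cldn5 in those of both vOLC libraries, while 4, 3 and 2 of the 6 genes had a UMI there and the list as a whole was at 60.2, 114 and 78.2 CPM in OPCs and at 4.18, 7.88 and 2.65 CPM in MOL5/6. The part of other cells in the Abcg2 level was not tested. Abcg4, the closest relative of Abcg1, had 32, 4 and 25 UMIs in OPCs and was at 1.21, 0.342 and 0.662 CPM in MOL5/6.

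Abca2 was followed through 10 of the 11 clusters, leaving out cycling OPCs, where it had 13, 1 and 1 UMIs. In control dOLCs it climbed from 204 CPM in OPCs to 493 in COP/NFOL/MFOLa (committed precursors with newly and early myelin-forming oligodendrocytes), 649 in MFOLb and 845 in MOL1. It was at 793 CPM in MOL2a and 557 in MOL2b, while MOL5/6a had 507, MOL5/6b 895, MOL5/6c 816 and MOL5/6d 499.6 CPM. MOL5/6a and MOL5/6d did not differ beyond their Poisson intervals, and neither did MOL1 and MOL5/6c. Ectopic vOLCs had the lowest level in each of these clusters, from 356 CPM in MOL2b to 864 in MOL5/6b beyond the OPCs. Against control vOLCs the interval of the ratio held 0 in COP/NFOL/MFOLa, MFOLb, MOL2b, MOL5/6b and MOL5/6c. Control vOLCs had 13 cells in COP/NFOL/MFOLa, 8 in MFOLb and 6 in MOL2b.

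**Figure D4:**
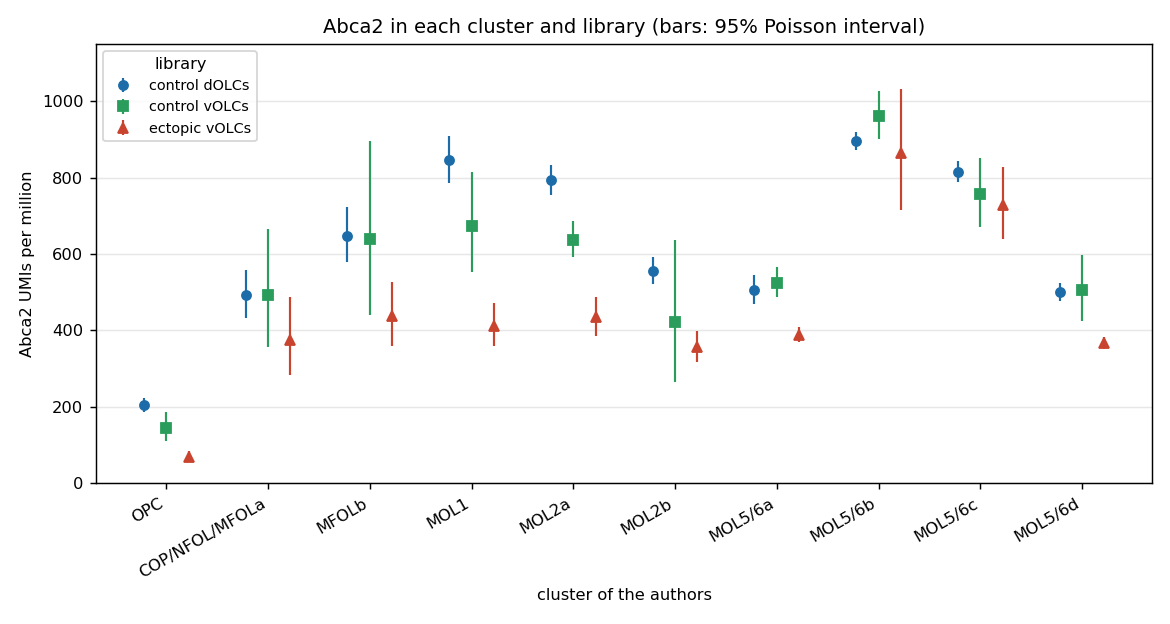
Abca2 level in CPM in 10 of the authors' clusters, 1 point per library with its 95% Poisson interval. Ectopic vOLCs lie well below both controls in OPC, MOL1, MOL5/6a and MOL5/6d. Their intervals overlap those of both controls in COP/NFOL/MFOLa, MOL5/6b and MOL5/6c, and those of control vOLCs in MFOLb and MOL2b.

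The gap between libraries was not the same in the 4 clusters joined as MOL5/6. Ectopic vOLCs against control dOLCs gave log2 ratios of -0.38 (-0.51 to -0.25) for MOL5/6a and -0.45 (-0.54 to -0.36) for MOL5/6d, but -0.05 (-0.32 to 0.21) for MOL5/6b and -0.16 (-0.36 to 0.03) for MOL5/6c, each of them nearer to 0 than the -0.93 (-0.98 to -0.87) of the joined cells. The mean of the 4 was -0.26. Against control vOLCs the 4 ratios were -0.43, -0.15, -0.05 and -0.46, beside -0.83 for the joined cells. The libraries were spread unequally over these clusters. MOL5/6b and MOL5/6c, where Abca2 was high in every library, held 51.5% and 24.6% of the MOL5/6 cells of control dOLCs but 2.28% and 3.42% of those of ectopic vOLCs, of which 48.9% were in MOL5/6a and 45.4% in MOL5/6d. Control vOLCs had 42.2% in MOL5/6a and 42.1% in MOL5/6b.

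Depth moved with these clusters: the median cell of control dOLCs held 2844 UMIs in MOL5/6b and 6036 in MOL5/6d. Its part in the Abca2 levels was not tested. The same unequal spread touches the other members. With the mean of the ratios in the 4 clusters in place of the joined cells, 1 member (Abca7) of 26 was lower by 1.5-fold against control dOLCs and 1 (Abca5, at 0.71) was higher, beside 8.59% and 4.38% of all genes. Each cluster had equal weight, with 0.5 UMIs added to each count. Taken singly, Abca7 was counted as lower in MOL5/6b only, where ectopic vOLCs had 42 cells and 138892 UMIs. In MOL5/6a it was at 3.18 CPM in ectopic vOLCs and 3.74 CPM in control dOLCs, from 13 and 5 UMIs. Outside MOL5/6, the Abca2 ratio to control dOLCs was -1.03 (-1.26 to -0.81) in MOL1, -0.87 (-1.05 to -0.69) in MOL2a, -0.64 (-0.83 to -0.46) in MOL2b, -0.57 (-0.89 to -0.25) in MFOLb and -0.40 (-0.84 to 0.03) in COP/NFOL/MFOLa.

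Per cell, a UMI of Abca2 was found in 91.9% of 3777 MOL5/6 cells of control dOLCs, 95.4% of 561 of control vOLCs and 85.8% of 1842 of ectopic vOLCs, at median depths of 3491, 5069 and 5478.5 UMIs. When each cell was thinned to 1000 UMIs, fewer than the 1257 of the smallest cell, the shares were 52.4%, 51.7% and 31.9%. A single Poisson rate for all cells of a library would give 55.0%, 53.7% and 32.9%, and the variance of the thinned counts was 1.12, 1.13 and 1.08 times their mean. At such low means the variance is near the mean in any case. Between clusters of control dOLCs the thinned mean was 0.916 in MOL5/6b and 0.480 in MOL5/6d. In OPCs the thinned shares were 16.6%, 14.0% and 8.48%, at median depths of 2795, 3454 and 3421.5 UMIs.

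Transcripts of mature cells were also found in OPCs. The 6 mature oligodendrocyte markers summed to 8548, 3767 and 3757 CPM in OPCs. If Abca2 were carried into OPCs in the same ratio to these markers as in MOL5/6, that would give 352, 19.5 and 33.2 UMIs, or 65.7%, 34.2% and 40.0% of the UMIs seen. That such a carry-over took place was not tested. Taking these amounts off left 70.0, 95.1 and 41.5 CPM, and the ectopic vOLC ratio to control dOLCs went from -1.56 (-1.92 to -1.23) to -0.76, while that to control vOLCs went from -1.06 to -1.20. For Abca8a the same ratio gave 43.0, 2.45 and 5.23 UMIs, beside 47, 5 and 5 seen. Abca1 and Abcb4 were hardly touched, at 2.51% and 1.25% of their OPC UMIs in control dOLCs. With the amounts by the 6 markers taken off every gene, 1 of 23 members, Abca2, was lower in ectopic OPCs against control dOLCs and 2 were higher, beside 4.55% and 12.5% of all 8770 genes. The amounts depend on the markers used. Scaled to Mog alone, those of Abca2 would be larger, at 410, 24.3 and 38.6 UMIs, or 76.6%, 42.6% and 46.5% of the UMIs seen. Whether Abca2 stays past 1.5-fold with the Mog amounts taken off was not tested.

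The library ratio of MOL5/6 moved with transcript length across the transcriptome. Over 9914 genes with an annotated length, Spearman's rho between length and the ectopic vOLC to control dOLC ratio was -0.52, as a description across genes of 1 pair of libraries, which are not independent. The median ratio was 0.06 in the shortest decile of genes (median 1037 bases) and -0.60 in the longest (median 8596 bases). Against control vOLCs rho was -0.45, and between the controls it was -0.09. Within the clusters of MOL5/6 it was nearer to 0, at -0.17 (MOL5/6a), -0.06 (MOL5/6b), -0.05 (MOL5/6c) and -0.29 (MOL5/6d). In OPCs it was -0.33 against control dOLCs and -0.39 against control vOLCs.

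Most of the members that were lower in MOL5/6 were long. Abca2, with 8033 bases, falls in the longest decile of genes, as do Abca1 and Abca8b, and Abca7, Abca3 and Abcc1 fall in the decile before it, while Abcb10, with 4306 bases, falls in decile 7. Once the median ratio of each member's own decile was taken off, Abca2 was at -0.33, Abca1 at -0.50, Abca8b at -0.47, Abca3 at -0.38, Abcc1 at -0.27, Abcb10 at -0.30 and Abca7 at -0.80. Of the 8 lower members Abca7 was then past 1.5-fold and the other 7 were not. Of 26 members 1 was then lower and 3 were higher, beside 7.16% and 4.56% of the 9914 genes with a length. The long Abca5 stood out upwards at 0.97, with Abcg2 at 0.73 and the shorter Abcb6 at 0.69. Abcg1 and Abca8a were at -0.00 and -0.04. The family median moved from -0.27 to -0.01. What lies behind the trend with length was not tested.

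**Figure D5:**
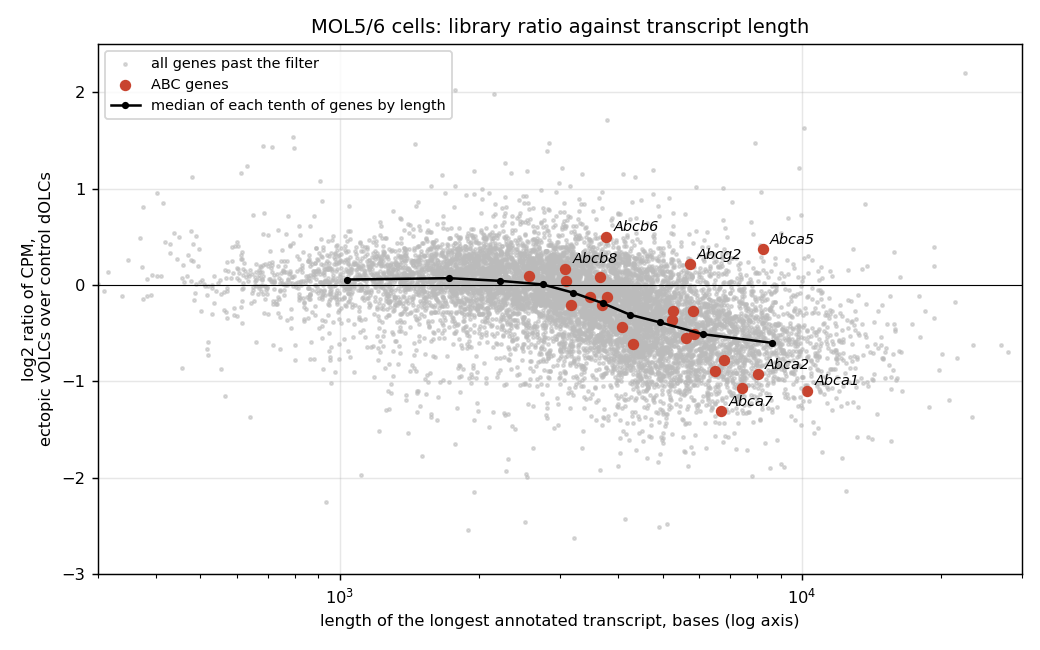
Log2 ratio of CPM of ectopic vOLCs over control dOLCs in MOL5/6 against the length of the longest annotated transcript in bases (log axis), for 9914 genes (grey), of which 26 lie outside the axes, with 24 ABC genes in red and the median of each length decile in black. The black line falls from 0.06 to -0.60, and Abca2 lies 0.33 below it while Abca5 and Abcg2 lie above it.

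Lists of genes that work beside the family gave the following in MOL5/6 of ectopic vOLCs against control dOLCs. Of 13 partners of Abcd in the peroxisome, 13 passed the filter and 0 were past 1.5-fold in either direction, with a median of 0.07. Of 7 iron-sulphur partners of the mitochondrial Abcb members, 0 of 7 were past it, with a median of 0.14. Of 7 listed genes of ribosome recycling and stalling in the table, 2 (Gcn1l1 and Zfp598) were lower and 0 higher. Of 12 sterol handling genes 10 passed, and 5 were lower and 0 higher, beside 19.9% and 1.80% of all genes, with a median of -0.40 that was not adjusted for length. Among the lower ones were the LXR partner Rxra, the lipoprotein receptor Lrp1, the lysosomal cholesterol transporter Npc1, and Srebf1, a regulator of lipid synthesis. Npc1 was at 306, 285 and 166 CPM in the 3 libraries, and Srebf1 at 120, 111 and 70.5 CPM. Apoe, the apolipoprotein that carries cholesterol between brain cells, was at 5246, 6306 and 5083 CPM. Against control vOLCs 4 of 9 sterol handling genes were lower and 0 higher, beside 16.4% and 2.81% of all genes. The 2 pores of ATP-sensitive potassium channels did not pass the filter.

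Of the 3 ABC genes with other symbols, Tap2, which loads peptides for antigen presentation, was at 49.1, 60.8 and 48.2 CPM in OPCs and at 3.30, 3.42 and 4.16 CPM in MOL5/6. It was lower in MOL5/6 in control dOLCs by 3.90 on the log2 scale, and it was not past 1.5-fold between libraries. Tap1 had 38, 6 and 8 UMIs in OPCs and Cftr 3, 0 and 0.

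Members with 1 to 49 UMIs were Abcd2 with 34, Abcc4 with 28, Abca9 with 5, Abca17, Abcc8 and Abcc12 with 4 each, and Abcc2 with 1. No UMI was counted for Abca4, Abca12, Abca13, Abca14, Abca15, Abca16, Abcb1a, Abcb5, Abcb11, Abcc3, Abcc6, Abcc9, Abcg3, Abcg5 and Abcg8. A count of 0 limits the level to at most 0.130, 0.619 and 0.210 CPM over all cells of the 3 libraries, for counting error only.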

How the data were processed

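Cells of 3 libraries were profiled by 10x 3′ single-cell RNA-seq. Per the labels, reads were processed by the authors with Cell Ranger 2.1.1 on mm10, and the deposited table holds raw UMI counts per gene and cell. The authors kept cells with more than 200 and fewer than 3000 genes and at most 15% mitochondrial UMIs, normalised them in Seurat and clustered them on 30 principal components at resolution 0.6. The deposited percent of mitochondrial UMIs per cell served for a stricter limit of 10%. Clusters and libraries were taken from the deposited annotation, of which 6 columns were not used. No doublets were removed here, and 4 other samples were not analysed here. A few genes are counted in the totals but not reported here by name or in the plots.

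Counts were summed by library and cluster over 9291 of 10081 barcodes and scaled to a total of 1000000 UMIs. With 1 library per condition no test was made. Ratios carry 95% conditional exact binomial intervals, and levels exact Poisson intervals, both for counting error only, and a count of 0 was bounded at 3 counts. Genes with at least 50 UMIs in the 2 groups compared and a difference of at least 1.5-fold were counted. Members with at least 500 UMIs were described in full and the others by their main values. The members and the lists were chosen with earlier results of these data known, and the 4 promoters after their genes' values were seen. Lengths are the longest GENCODE M21 transcript, and promoters are from RefSeq (GRCm38.p6).

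Alternatives were edgeR 4.0.16 TMM factors and DESeq2 1.42.0 size factors in R 4.3.3, used for scaling alone, the mean of per-cell CPM, thinning to 1000 UMIs, the mitochondrial limit, 2 other filters, removal of the median of each of 10 length deciles, and the mean within the 4 MOL5/6 clusters. Taking the mature marker ratio off the OPCs was added after seeing the data. Scripts (Python 3.11.15, numpy 2.4.6, scipy 1.17.1, pandas 2.3.3) were tested on simulated data.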

Additional observations from a re-analysis of the deposited data

Results flagged for a closer look

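Abcb8 differed in direction between cell types. In ectopic vOLCs against control dOLCs its log2 ratio was 0.17 (0.07 to 0.27) in MOL5/6 and -0.55 (-0.98 to -0.14) in OPCs, a gap of 0.72, with 1 library on each side. The difference was not tested. The OPC ratio was -0.36 with the mature marker ratio taken off and 0.15 with cells thinned to 1000 UMIs, so the opposite direction was not seen under thinning.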

How the results depend on the processing

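The 18 results compared here are member counts past 1.5-fold, the family medians and the Abca2 ratios of ectopic vOLCs against control dOLCs. Of their 156 alternative values 91 stayed close and 65 moved. Among these medians and ratios 0 reversed direction, but single genes outside them turned sign, such as Abcd3 and Abce1 with other scalings, and so did the stage median of ectopic vOLCs. The values below are counts, and the members counted under an alternative need not be those counted in the report. No paired analysis was possible because there is 1 library per condition, so no library could be left out either. Depth limits the OPCs of control vOLCs, with 121 cells, and the small clusters, such as the 42 ectopic vOLCs in MOL5/6b and 35 control vOLCs in MOL5/6d.

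For ectopic vOLCs against control dOLCs in MOL5/6, the count of 8 lower members was 1 of 12 with a UMI required in 10% of cells, 1 of 26 with length deciles taken off and 1 of 26 with the mean within 4 clusters, beside 11.5%, 7.16% and 8.59% of all genes in place of 19.9%. Thinned, it was 8 of 21, beside 21.1% of all genes, but 6 of these were shared with the main 8. Abcf2 and Abcg1 came in, while Abca7 and Abcc1 dropped out, Abca7 with 47 UMIs, under the filter. The count of 0 higher was 1 with TMM, size factors, per-cell CPM, no filter or the mean within clusters, and 3 with length taken off. The family median of -0.27 became -0.10 (TMM), -0.087 (size factors), -0.17 (10% of cells) and -0.012 (length). Abca2, at -0.93, became -0.76 (TMM), -0.74 (size factors), -0.98 (per-cell CPM), -1.0 (thinned), -0.33 (length) and -0.26 (within clusters).

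Against control vOLCs in MOL5/6, the count of 5 lower members was 3 of 9 (thinned), 3 of 13 (10% of cells), 1 of 25 (length) and 2 of 25 (within clusters), beside 14.5%, 12.4%, 8.01% and 12.7% of all genes in place of 16.4%. Shared with the 5 were 2, 3, 1 and 0 of these, and the 2 within clusters were Abcc10 and Abcd4. The count of 0 higher was 1 (TMM, size factors, per-cell CPM, mitochondrial limit, no filter) and 2 (length, within clusters). Between the controls in MOL5/6, the count of 3 lower was 0 of 11 (10% of cells), 7 of 33 (no filter) and 1 of 25 (within clusters), beside 0.731%, 8.04% and 4.97% of all genes, and the count of 0 higher was 1 (per-cell CPM, thinned, no filter). Thinned, 2 of 19 members were lower, Abcb10 and Abce1, beside 10.5% of all genes, and 0 of them were among the 3.

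In OPCs of ectopic vOLCs against control dOLCs, the count of 5 lower was 2 of 10 (thinned), 1 of 14 (10% of cells) and 1 of 23 (mature marker ratio), beside 9.40%, 5.79% and 4.55% of all genes, and the count of 1 higher was 0 (thinned, 10% of cells) and 2 (mature marker ratio). The family median of -0.16 became -0.33 (per-cell CPM) and 0.00 (mature marker ratio), and Abca2, at -1.56, became -1.14 (thinned) and -0.76 (mature marker ratio). Against control vOLCs the count of 4 lower was 0 of 2 (thinned), 12 of 30 (no filter) and 2 of 15 (length), beside 8.64%, 20.7% and 10.3% of all genes in place of 9.77%, and the count of 1 higher was 0 (per-cell CPM, length) and 4 (no filter). Abca2, at -1.06 there, was at -0.96 when thinned, but its 48 UMIs were under the 50 that the filter asks. Between the control OPCs the count of 2 lower was 1 (per-cell CPM, thinned, mitochondrial limit), 4 of 31 (no filter) and 0 of 19 (mature marker ratio), beside 12.8% and 8.79% of all genes in the last 2, and the count of 2 higher was 1 (TMM, size factors), 0 (thinned), 6 (no filter) and 7 (mature marker ratio), beside 18.3% and 16.8% in the last 2.

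Between stages in control dOLCs, the count of 15 members lower in MOL5/6 was 9 with TMM and with size factors, and that of 5 higher was 3 of 14 with a UMI in 10% of cells, beside 16.1% of all genes. With TMM and with size factors, the 13 lower and 4 higher of control vOLCs became 8 and 6, and the 17 lower and 5 higher of ectopic vOLCs became 6 and 7, with the median of the latter going from -0.84 to 0.05 and 0.06. The mature marker ratio was chosen after seeing the data. Beyond what each alternative itself removes, the cause was not tested.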
